A study of Rattus norvegicus with 6 samples.

Results

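The change of gene expression with time was described in control astrocytes, which carried no mutant TDP-43, over the days after doxycycline (Dox) was withdrawn. The 3 tTA control arrays of a series of 6 were used, 1 array each on days 3, 4 and 6. No level was compared between genotypes. The remaining arrays enter only in an alternative normalization and, at the end, as a description of the same days. The arrays were Illumina rat beadchips hybridised with amplified, biotin-labelled total RNA of cultured primary astrocytes. The control cells came from GFAP-tTA single transgenic rats. In these animals the GFAP promoter, active in astrocytes, drives tTA, a transcription factor that Dox keeps from its target promoter. The other 3 arrays of the series came from rats that also carried a TRE-driven M337V mutant TDP-43 transgene. Dox had been withdrawn from every culture measured, so tTA was free to act in the controls too, without that transgene to drive. Controls kept on Dox or cells without tTA were not analysed here, and days after withdrawal and days in culture cannot be told apart. It is not stated in the labels whether these arrays came from separate cultures or from 1 culture sampled repeatedly. With 1 array per day, no difference below has a replicate check, and the number of arrays limits the precision.

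A gene counted as measured where a probe with 1 gene symbol passed a detection p of 0.05 on any of the 3 arrays. This held for 8192 of the 13337 genes named on the array, and 6637 of them were detected on all 3. Nearest the limit, the last probe kept had a best detection p of 0.0497 and the first left out had 0.0509. The arrays had mean bead signals of 468 to 481 and detected 44.8% to 46.1% of 22523 probes. Values below are log2 normalized signals, given in the order day 3, day 4 and day 6, and folds are ratios of these signals. A level of 1 probe cannot be set against that of another. Where a gene was not detected on the dimmer array, its fold is a bound, written as at least N-fold.

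Astrocytes are the glial cells that clear glutamate and potassium, supply lipids to neurons and, after injury, turn reactive. In culture they start as dividing, matrix-producing cells, and as a culture becomes dense they divide less. A primary glial culture can also hold microglia, ependymal cells with motile cilia, and meningeal fibroblasts. The labelled cell type was checked against markers. Of 20 mature astrocyte markers with a named probe, 17 were detected, and Gpc5, Kcnj10 and Slc7a10 were not. Gfap, the intermediate filament that defines the lineage, read 14.94, 15.02 and 15.15, and its partner vimentin (Vim) read 14.59, 14.62 and 14.51. Slc1a3, the glutamate transporter of immature and cultured astrocytes, read 13.51, 13.75 and 13.99. Other astrocyte genes differed more between days. Tardbp, the endogenous TDP-43 gene, read 11.08, 10.86 and 10.60.

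The 3 profiles were close, and day 4 lay between the other days. Over the 11703 probes detected on at least 1 array, Pearson's r was 0.989 between days 3 and 4, 0.992 between days 4 and 6, and 0.983 between days 3 and 6, across probes of the same arrays. Of 7915 genes detected on day 3 or day 6, 124 (1.57%) were at least 2-fold higher on day 6 and 109 (1.38%) were at least 2-fold lower. The median difference of all 8192 genes was 0.01 with an SD over genes of 0.43 (log2). The difference of the signals reached 4-fold upward in 12 genes and downward in 8. The 12 include Aif1, not detected on day 3, whose bound is at least 3.51-fold. Of the genes at least 2-fold apart 53.2% were higher on day 6, against 64.5% of 93 in the authors' deposited value table and 62.7% of 83 without background correction. On one of the outer days 18 of the 124 and 16 of the 109 were not detected, and of these 5 and 8 were still at least 2-fold apart as a bound. Only 1 of the 233 genes, Ppp1r1b, had a further detected probe, and that probe differed by 0.06 against 1.31 for the brighter probe.

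The 12 largest increases included several genes of secreted and membrane proteins. Tf, which encodes the iron carrier transferrin, read 10.08, 12 and 13.17, an 8.51-fold difference between day 6 and day 3. Chrdl1, a secreted antagonist of BMP signalling, read 6.05, 7.73 and 8.99 (7.68-fold). Chi3l1, a secreted chitinase-like glycoprotein made by reactive astrocytes, read 7.17, 8.89 and 10.06 (7.43-fold). Each of these gained level in both steps. Scg2, a granin of secretory granules, read 6.30, 7.52 and 8.99 (6.44-fold), and Thbs4, a thrombospondin of the matrix, read 8.74, 10.07 and 11.04 (4.94-fold). Serping1, the inhibitor of the first complement protease, read 7.94, 9.53 and 10.20 (4.78-fold). Adora2a, an adenosine receptor, read 5.34, 6.37 and 7.56 (4.65-fold), and Itgb4, an integrin subunit that binds laminin, read 6.36, 7.46 and 8.49 (4.37-fold). The cilium protein gene Cfap126 gained most of its 6.02-fold difference by day 4, whereas the microglial gene Aif1 was detected on day 6 alone (both described with their groups). Cyp4f4, a cytochrome P450, was 4.23-fold higher and Apobec1, an mRNA-editing deaminase, 4.04-fold higher on day 6.

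The 12 largest decreases included matrix, muscle-type and growth-factor-binding genes. Car3, a carbonic anhydrase abundant in muscle and fat, read 10.52, 7.88 and 6.82, a 13.0-fold lower level on day 6. Postn, the matricellular protein periostin, read 11.44, 9.28 and 7.98 (11-fold lower). Spp1, the secreted phosphoprotein osteopontin, read 10.70, 8.85 and 8.05 (6.27-fold lower). All 3 lost most of the difference between days 3 and 4. Acta1, a muscle actin, read 10.83, 9.70 and 8.22 (6.10-fold lower), and Grem1, a BMP antagonist, read 9.43, 8.33 and 7.16 (4.82-fold lower). The other genes of the 12 largest decreases were Col1a1, Igfbp3, Pcp4, Npy, Col3a1, Eef1a2 and Vgf, with differences of -2.25 to -1.83 on the log2 scale. Chrdl1 and Grem1, both BMP antagonists, thus lay at opposite ends. The list of Notch, BMP and glial fate genes had a median of -0.06 over 20 members, Grem1 being the only member 2-fold apart and Bmp2, the next, reading 5.85, 6.12 and 6.79.

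**Figure D1:**
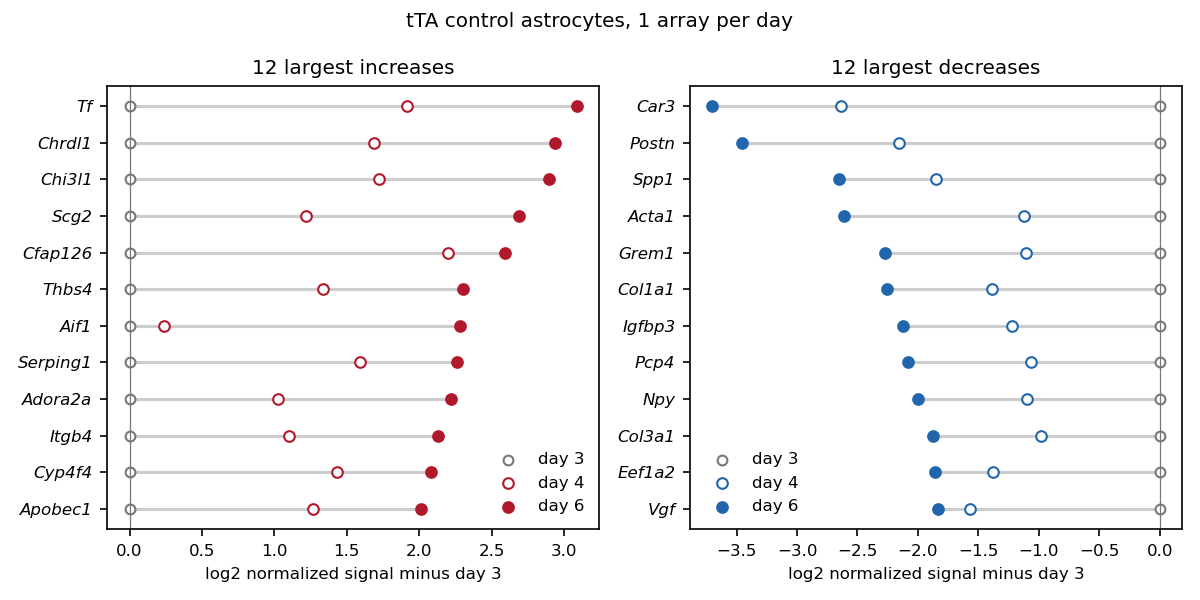
Log2 normalized signal minus the day 3 value of the same gene (x axis) for the 12 genes with the largest increase (red, left) and the 12 with the largest decrease (blue, right) whose day 4 value lay between. Open grey circles are day 3, open coloured circles day 4 and filled circles day 6, 1 array each; Tf reaches 3.09 and Car3 -3.70, and Aif1 was detected on day 6 alone.

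Day 4 was read beside the outer days to describe how steady the change was. Of the 233 genes 97.4% had a day 4 value between days 3 and 6, against 47.0% of all genes. The share was 83.1% of the 1304 genes whose difference was between 0.5 and 1 on the log2 scale. The exceptions among the 233 were Capsl, Dnai2, C1qb and Lrrc34 among the higher genes and Cd93 and Pxmp4 among the lower, named here because they are so few. The 233 were chosen for a wide gap between the outer days, and a wider gap by itself holds more day 4 values. These shares therefore do not test whether the trend was steady. On these arrays the larger part of the median change lay before day 4. By day 4 the higher genes had made a median of 64.0% of their change (quartiles 51.9% and 73.2%). The lower genes had made 56.5% (quartiles 43.7% and 72.4%), where a straight line in time gives 33.3%. The genes were chosen on the outer days, so error of those arrays also enters this share. A larger first step and an effect of the day 3 array cannot be told apart. From day 3 to day 4, 40 genes were at least 2-fold higher and 40 at least 2-fold lower, and from day 4 to day 6 the counts were 20 and 16. Large excursions on day 4 were rare. Only Cyp2c23, a cytochrome P450 at 5.91, 4.86 and 5.89 and not detected on day 4, was at least 2-fold outside the range of the other days, and the largest excursion upward was that of Paqr7 (4.57, 5.58 and 4.75), detected on 1 array.

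**Figure D2:**
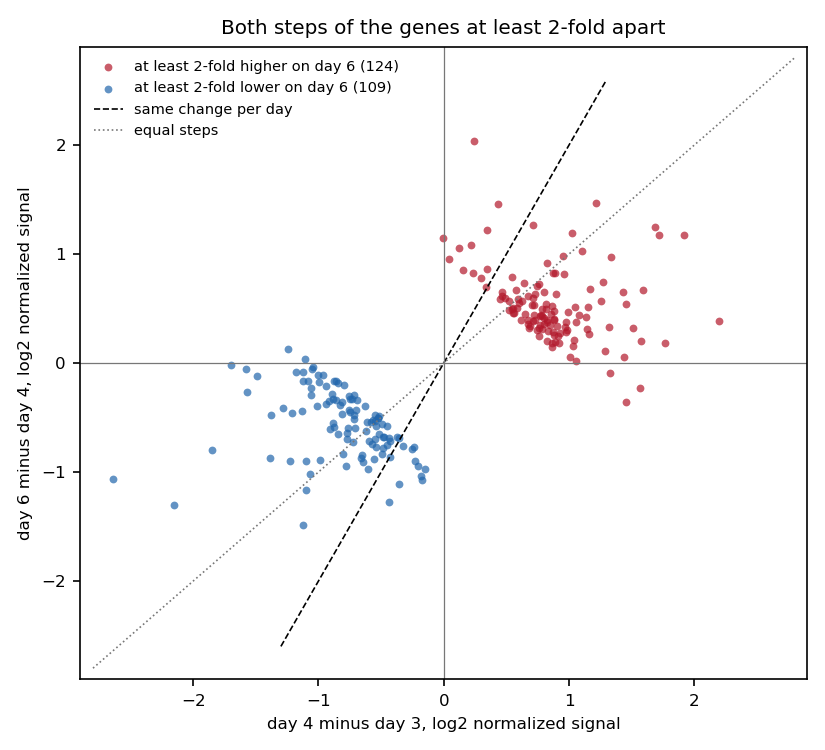
Day 4 minus day 3 (x axis) against day 6 minus day 4 (y axis), log2 normalized signal, for the 124 genes at least 2-fold higher (red) and the 109 at least 2-fold lower (blue) on day 6. Points on the dashed line changed by the same amount per day and points on the dotted line made equal steps; most points lie on the side of the larger first step, and the red point nearest the top is Aif1.

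A slope per day was tested with limma (1 residual degree of freedom, prior 4.94). At a Benjamini-Hochberg adjusted p of 0.05 it called 0 of 8192 genes, with a smallest adjusted p of 0.172 by limma. Unadjusted, 1107 genes (13.5%) had p under 0.05, 588 with a positive and 519 with a negative slope, and these included 227 of the 233 genes at least 2-fold apart. Modelling the variance as a trend with the mean level turned the count to 595 genes, 308 with a positive and 287 with a negative slope, with 216 of the 233 among them. The smallest p-values belonged to Acta1 (slope -0.85 per day, SE 0.08), Scg2 (0.87, SE 0.08), Efhd1 (0.66, SE 0.07) and Adora2a (0.72, SE 0.08). Such a fit measures distance from a line through 3 arrays, not the spread between cultures. The slope also rests largely on the day 6 minus day 3 difference by which the 233 genes were chosen. Their overlap with small slope p-values is therefore built in and is no separate support.

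Cell division genes were lower on day 6. Of 24 measured mitosis genes, 23 were lower, and 6 reached 2-fold (against 1.38% of all genes), while 0 were 2-fold higher, with a median of -0.84 against 0.01 for all genes (-0.85 to -0.52 under other scalings). The members 2-fold apart run from the cyclins to the spindle. Ccna2, the cyclin of S phase and mitotic entry, read 8.29, 7.79 and 6.96 (2.52-fold lower), and Ccnb2, a mitotic cyclin, read 9.78, 9.57 and 8.63 (2.23-fold lower). Ndc80 and Spc25, subunits of 1 kinetochore complex, read 6.75, 6.57 and 5.53, and 9.06, 8.63 and 7.91. The spindle checkpoint kinase gene Ttk read 7.42, 6.91 and 6.26, and the cytokinesis motor gene Kif20a 8.85, 8.59 and 7.80. Most of this difference arose after day 4, the median step being -0.22 from day 3 to day 4 and -0.61 from day 4 to day 6. The second step covers the longer interval, so the steps are not rates per day. Aurkb, a kinase of chromosome segregation that stood out once its values were seen, was the member that was not lower (8.45, 8.87 and 8.47).

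DNA replication genes moved less than mitosis genes. Of 23 measured, 20 had a lower value and 3 reached 2-fold, against 1.38% of all genes, with a median of -0.31. These were Rrm2, a subunit of ribonucleotide reductase (9.52, 9.09 and 8.22), Gins1 of the replicative helicase (6.39, 6.21 and 5.13) and Mcm3 of the same helicase (6.63, 6.30 and 5.54). The inhibitors and regulators of the G1 phase had a median of 0.01 over 17 genes with 0 at least 2-fold apart. Ccne2, an S-phase cyclin, read 6.39, 5.32 and 5.43, and Cdkn1a, an inhibitor of cyclin-dependent kinases, read 6.57, 5.96 and 5.64.

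The promoters of Ndc80 and Ttk are shown because mitosis genes are known to be controlled through a TTTGAA element next to a CCAAT box. Of the 24 measured mitosis genes 20 had a promoter in the RefSeq table of build GRCr8 (250 bases before to 50 after the start of the gene, gene strand). TTTGAA, searched on both strands, was in 75% of the 20 against 18.3% of all 33469 promoters and 11.9% of those of the measured genes. CCAAT, also on both strands, was in 65% against 37.5% and 37.6%. Neither motif overlaps the other, and capitals mark every match. The Ndc80 window is chr9:118887480-118887779 (- strand) and the Ttk window is chr8:93634389-93634688 (+ strand).
Ndc80: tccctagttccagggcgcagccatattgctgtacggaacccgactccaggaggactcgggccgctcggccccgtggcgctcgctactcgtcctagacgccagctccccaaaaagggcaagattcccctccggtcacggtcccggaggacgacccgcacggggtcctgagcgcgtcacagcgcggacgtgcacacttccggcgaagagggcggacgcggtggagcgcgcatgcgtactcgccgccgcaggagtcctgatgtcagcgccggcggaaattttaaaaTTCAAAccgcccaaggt
Ttk: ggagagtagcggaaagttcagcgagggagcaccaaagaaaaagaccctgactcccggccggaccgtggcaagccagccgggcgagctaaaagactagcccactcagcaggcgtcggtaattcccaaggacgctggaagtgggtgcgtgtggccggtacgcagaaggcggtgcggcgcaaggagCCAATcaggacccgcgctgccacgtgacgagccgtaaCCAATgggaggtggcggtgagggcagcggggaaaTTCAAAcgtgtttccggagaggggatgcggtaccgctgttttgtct
In both, the TTTGAA match (read here as TTCAAA) lies in the stretch around the start of the gene. The Ttk window also holds 2 CCAAT matches and that of Ndc80 holds 0.

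Several genes of cholesterol synthesis and uptake were lower on day 6. All 16 measured members had a lower value on day 6, where 51.1% of all genes had a higher one. By their signals 5 reached 2-fold (against 1.38% of all genes). The median was -0.74 (-0.74 to -0.50 under other scalings), or -0.64 with undetected genes at their bound. Idi1, the isomerase that makes a building block of sterols, read 8.50, 7.74 and 7.15 (2.56-fold lower). Fdps, which joins those blocks to farnesyl diphosphate, read 10.44, 9.31 and 9.15 (2.45-fold lower). Cyp51, the sterol demethylase, read 8.03, 7.27 and 6.84 (2.29-fold lower), and Acat2, which makes acetoacetyl-CoA at the head of the pathway, read 11.88, 11.19 and 10.86 (2.04-fold lower). Stard4, a cholesterol carrier, is 1 of the 5 by its signal, but it was detected on day 3 alone and its bound is at least 1.65-fold lower. The other 11 did not reach 2-fold, with differences of -0.98 to -0.14, and of these Tm7sf2 differed by -0.93 on its brighter probe and by -0.03 on the next. Unlike the mitosis genes, these made the larger median step by day 4, at -0.49 against -0.26 afterwards.

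The promoters of Idi1 and Fdps are given with their CCAAT boxes, since NF-Y at CCAAT is known to act together with the sterol-sensing factor SREBP on these genes. CCAAT was in 75% of the 12 members with a promoter, against 37.5% of all promoters. CACCCCAC, a sterol element of the LDL receptor type searched on both strands, was in 8.33% against 2.70%, and in neither window below. The Idi1 window is chr17:66547475-66547774 (- strand) and the Fdps window is chr2:176804767-176805066 (- strand), both GRCr8, with CCAAT or its reverse complement ATTGG in capitals.
Idi1: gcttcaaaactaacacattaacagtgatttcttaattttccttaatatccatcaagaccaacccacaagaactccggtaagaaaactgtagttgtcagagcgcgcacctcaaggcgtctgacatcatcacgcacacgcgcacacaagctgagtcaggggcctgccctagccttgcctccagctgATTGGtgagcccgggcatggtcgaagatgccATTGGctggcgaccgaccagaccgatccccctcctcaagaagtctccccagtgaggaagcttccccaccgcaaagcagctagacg
Fdps: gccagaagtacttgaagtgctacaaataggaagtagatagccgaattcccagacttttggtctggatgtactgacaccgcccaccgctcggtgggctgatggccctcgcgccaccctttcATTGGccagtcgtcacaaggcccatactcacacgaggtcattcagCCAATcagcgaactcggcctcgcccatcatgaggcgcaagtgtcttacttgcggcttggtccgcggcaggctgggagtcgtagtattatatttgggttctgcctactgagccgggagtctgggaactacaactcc
Each window holds 2 CCAAT matches upstream of the start.

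Lipid genes outside that pathway split. Scd, the desaturase that makes monounsaturated fatty acids, read 11.82, 11.04 and 10.35 (2.78-fold lower), and was the only one of 23 fatty acid and lipid storage genes at least 2-fold apart (median -0.04). Among 10 genes of sterol efflux, 9 were higher on day 6 (median 0.31). Apoe, the main lipoprotein of astrocytes, read 12.33, 13.79 and 14.33 (3.99-fold higher), and Nr1h3, a nuclear receptor that senses oxysterols, read 6.70, 7.07 and 7.38. Abca1, the sterol exporter, read 7.73, 7.94 and 7.76, so the efflux list did not move as a unit.

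Collagen genes were lower on day 6. Of 23 fibrillar collagen and collagen maturation genes 20 were lower, 7 of them at least 2-fold against 1.38% of all genes, with a median of -0.50. Col1a1, a chain of type I collagen, read 10.61, 9.22 and 8.35 (4.77-fold lower), and Col3a1, the chain of type III collagen, read 8.77, 7.78 and 6.89 (3.68-fold lower). Loxl2, a lysyl oxidase that crosslinks collagen, read 9.41, 8.28 and 7.85, and Adamts2, which trims its precursor, read 8.96, 8.31 and 7.40. Col1a2, the partner chain of Col1a1, named after its values were seen, read 15.07, 15.01 and 14.68. This bright probe thus differed by -0.39 where Col1a1 differed by -2.25. Of 8 basement membrane genes 2 were at least 2-fold lower, against 1.38% of all genes. Col15a1 was detected on day 3 alone (at least 2.25-fold lower), and Col4a1 read 9.55, 8.72 and 8.34.

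Matricellular and proteoglycan genes went in both directions. Of 24 matricellular and elastic fibre genes 4 were lower by 2-fold or more (1.38% of all genes) and 2 were higher (1.57% of all genes). Next to Postn, the lower ones were elastin (Eln; 7.05, 6.17 and 5.59), Ccn5 (6.24, 5.42 and 5.07) and Tnn, a tenascin (13.42, 13.19 and 12.42). Thbs4 and the fibulin Efemp1 (7.88, 8.61 and 9.25) were the higher ones. Among 14 proteoglycans Ogn, a small leucine-rich member, was 3.60-fold higher (10.38, 11.55 and 12.22), and Vcan, versican, 2.24-fold lower (6.79, 6.30 and 5.63). Fibroblast and meningeal markers overlap with the matrix lists, where Postn, Col1a1, Col3a1 and Ogn are already counted. Of 17 with a named probe 11 were measured, with a median of -0.58. Of the 11, 3 were at least 2-fold lower (Postn, Col1a1 and Col3a1) and 1 higher (Ogn), against 1.38% and 1.57% of all genes. The summed normalized signal of the 11 markers was 58147, 52912 and 49108. Dcn, Lum, Fap, Ptgds, Slc6a13 and Aldh1a2 were not detected on any control array. Of 6 measured pericyte and smooth muscle markers 5 were lower, 0 by 2-fold, with a median of -0.53. The part of such cells in the lower collagen level was not tested, and fewer cells of a type and less RNA per cell cannot be told apart.

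Some TGF-beta and growth factor axis genes were lower too. Of 14 TGF-beta pathway genes 12 had a lower value and 3 reached 2-fold, against 1.38% of all genes. Pmepa1, a feedback inhibitor induced by TGF-beta, read 13.08, 12.18 and 11.57 (2.84-fold lower), and the ligand Tgfb3 read 9.05, 8.11 and 7.74 (2.49-fold lower). Fst, the activin-binding follistatin, read 9.17, 8.65 and 8.14. Among 17 contractile and serum response genes 15 were lower (median -0.32). Only Ankrd1, a target of YAP and mechanical stress, was at least 2-fold lower (7.32, 6.54 and 5.60), against 1.38% of all genes. In the insulin-like growth factor axis 11 of 13 were lower (median -0.49), 2 of them at least 2-fold against 1.38% of all genes. Igfbp3, a binding protein for these factors, read 11.61, 10.38 and 9.49 (4.35-fold lower), Igfbp5 was at least 2.53-fold lower, and Igfbp6 was higher (6.23, 6.09 and 6.94).

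**Figure D3:**
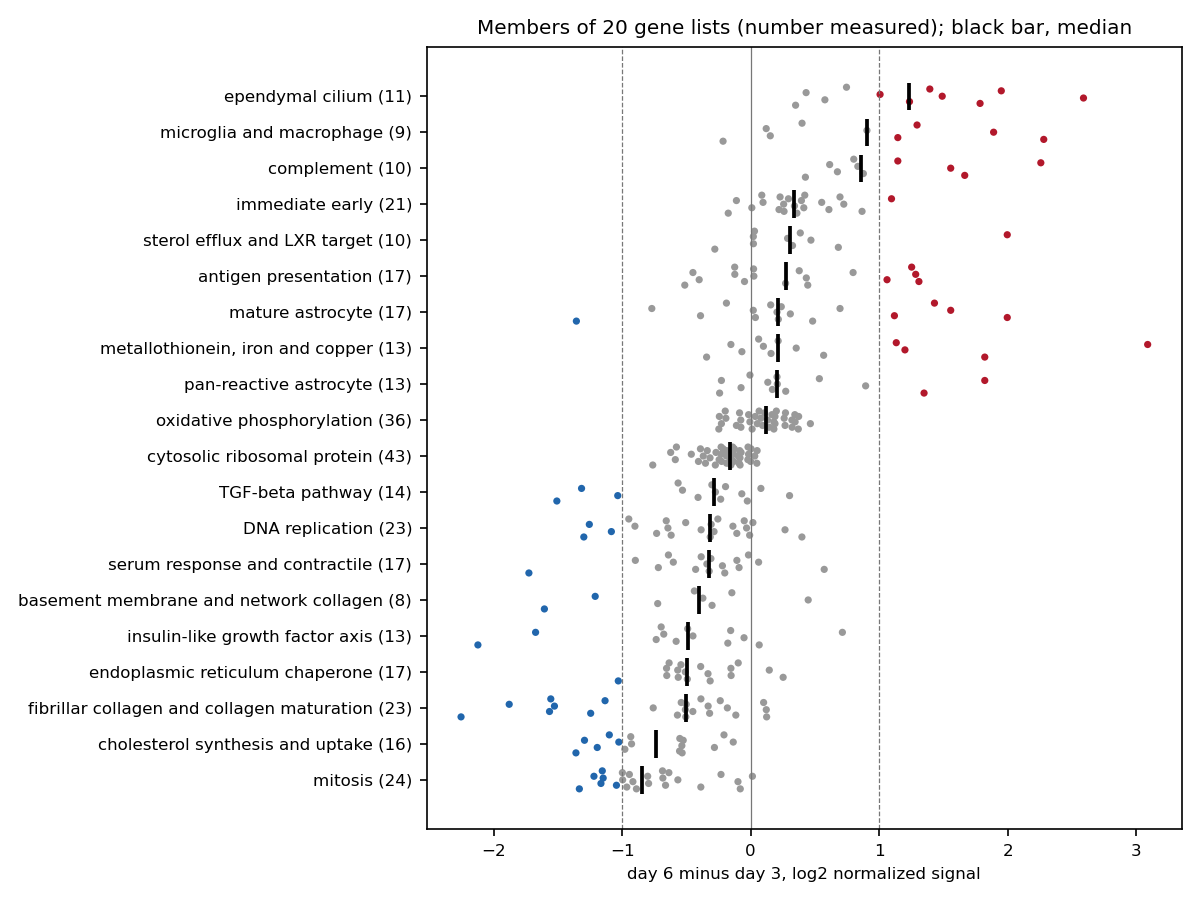
Day 6 minus day 3, log2 normalized signal (x axis), of each measured member of 20 gene lists, ordered by their median (black bar). Red points are at least 2-fold higher and blue points at least 2-fold lower on day 6, dashed lines mark 2-fold, and the medians run from 1.24 for the ependymal cilium list to -0.84 for the mitosis list.

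Several genes of mature astrocytes were higher on day 6. Of 17 measured, 4 were at least 2-fold higher (1.57% of all genes) and 1 was lower by as much (1.38% of all genes), with a median of 0.22. Besides Apoe these were Acsbg1, an acyl-CoA synthetase of brain lipid metabolism (10.53, 11.66 and 12.08), Mlc1, a membrane protein of astrocyte endfeet (10.57, 11.62 and 12), and Clu, the lipoprotein clusterin (12.83, 13.55 and 13.95). Their folds were 2.94, 2.70 and 2.17. Slco1c1, a transporter of thyroid hormone, was 2.56-fold lower (7.54, 6.48 and 6.19). The glutamate transporter Slc1a2, which marks mature astrocytes, read 6.20, 6.02 and 6.51. The water channel Aqp4 read 10.08, 10.33 and 10.32, and the gap junction gene Gja1, also named after its values were seen, 13.87, 14.01 and 13.90. 

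Reactive astrocyte genes were partly higher. Of 13 pan-reactive genes 2 were at least 2-fold higher, against 1.57% of all genes. Cp, the copper oxidase ceruloplasmin, read 10.37, 11.62 and 12.19 (3.54-fold), and Lcn2, a secreted siderophore-binding lipocalin, read 6.77, 7.74 and 8.12 (2.55-fold). Serpina3n, a secreted protease inhibitor, read 7.21, 8.12 and 8.11, and Gfap and Vim differed by 0.21 and -0.07. Of the 10 genes of the neurotoxic (A1) list 3 were at least 2-fold higher, against 1.57% of all genes. All 3 belong to complement control or class I antigen presentation (Serping1, RT1-A1 and RT1-S3). Against 1.38% of all genes, 2 of the 6 genes of the trophic (A2) list were at least 2-fold lower. These were Ptgs2, the inducible cyclooxygenase (6.80, 6.00 and 5.16, 3.12-fold), and Sphk1, a sphingosine kinase (7.22, 6.33 and 6.04).

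Several complement genes were higher on day 6. All 10 measured members had a higher value on day 6, 4 of them at least 2-fold against 1.57% of all genes. The median was 0.86, or 0.82 with undetected genes at their bound. On day 3, 8 were detected, on day 4 also 8 and on day 6 all 10. A gene detected on day 6 alone had to be higher there. After Serping1, the largest differences were those of Cfb, factor B of the alternative pathway (5.39, 6.54 and 7.06, 3.17-fold), and C4b (8.02, 9.07 and 9.58, 2.94-fold). C1s and C1r, the proteases of the first component, read 12.30, 12.88 and 13.18, and 11.66, 12.41 and 12.46, both named after their values were seen. C1qb, a subunit that microglia are known to make, read 4.43, 4.42 and 5.57 and was detected on day 6 alone. It is 1 of the 4 by its signal, while its bound is at least 1.52-fold.

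Some antigen presentation genes were also higher. Of 17 measured in this list of class I and class II genes, 11 were higher and 6 lower on day 6. The 2-fold limit was reached by 4 of the higher ones, against 1.57% of all genes, and by 0 of the lower ones, with a median of 0.27 (0.13 to 0.31 under other scalings). RT1-A1 read 9.38, 10.09 and 10.69 (2.48-fold), RT1-S3 6.18, 7.06 and 7.47 (2.44-fold) and RT1-A2 8.19, 8.90 and 9.44 (2.38-fold). These rat genes are near-identical copies, and a probe may read several of them. B2m, the light chain shared by class I molecules, read 13.64, 13.85 and 14.09, and the immunoproteasome subunit gene Psmb10 10.12, 10.02 and 9.72, both also named after their values were seen. RT1-DMb, which loads peptides on class II molecules, read 4.91, 5.15 and 5.97 and was not detected on day 3. It is 1 of the 4 by its signal, while its bound is at least 1.997-fold. Interferon response genes had a median of 0.24 over 19 members with 0 at least 2-fold apart, and Mx2, the largest, read 6.32, 6.76 and 7.06. Chemokine and cytokine genes had 12 of 15 higher, but the only member 2-fold apart was Spp1, which was lower, and with undetected genes at their bound the median went from 0.44 to 0.25.

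Microglial markers moved beside these immune genes, at low level. Of 20 with a named probe 9 were measured on these arrays, 3 being detected on day 3, 4 on day 4 and 9 on day 6. Aif1, the microglial calcium-binding protein, read 4.50, 4.74 and 6.79 and was at least 3.51-fold higher on day 6. Fcer1g, a signalling chain of Fc receptors, read 5.03, 5.46 and 6.92 (3.71-fold). Ctss, a lysosomal protease, and Trem2, a microglial receptor, were detected on day 6 alone, with bounds of at least 1.81-fold and 1.86-fold. Of the 9, 5 were detected on day 6 alone and so had to be higher there, and the median of the list (0.91, or 0.60 with undetected genes at their bound, and 0.29 to 0.98 under other scalings) is given as a description only. The summed normalized signal of the list was 516, 542 and 819, and C1qa, C1qc, Cx3cr1, P2ry12, Ptprc, Tyrobp, Cd53, Cd74, Mrc1, Adgre1 and Spi1 were not detected on any control array. Their part in the complement and antigen presentation differences was not tested.

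Motile cilium genes of ependymal cells had the highest median of the 48 lists. All 11 measured members had a higher value on day 6, as did 51.1% of all genes, and 7 reached 2-fold (against 1.57% of all genes), with a median of 1.24 that ranged from 0.74 to 1.25 under other scalings. Cfap126 read 5.83, 8.03 and 8.42 (6.02-fold), and Spag6l, a protein of the central pair of the axoneme, read 5.56, 7.32 and 7.51 (3.86-fold). Tppp3, a tubulin-binding protein, read 6.02, 7.59 and 7.80 (3.45-fold), and Dynlrb2, a dynein light chain, read 7.68, 9.11 and 9.17 (2.81-fold). The median step was 1.28 up to day 4 and 0.11 after it. Summed normalized signal of the list was 1367, 2903 and 3220, and all 11 members were detected on every day. Some cilium and flagellum genes outside the list, named after their values were seen, were also at least 2-fold higher. Among them were Odad1 (4.77, 5.93 and 6.19, at least 2.32-fold) and Capsl (4.94, 6.51 and 6.28, at least 2.48-fold), neither detected on day 3, and Lrrc34 (5.81, 7.26 and 6.91). Of 6 measured axonemal dynein genes, which include list members, 3 were at least 2-fold higher (1.57% of all genes). Outside the list, Dnai4 (6.80, 6.82 and 6.66) and Dnai7 (5.65, 6.09 and 6.27) were not.

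The promoter of Spag6l is shown because it holds the core GTTGCC of the X-box, the element through which RFX factors are known to act on cilium genes. GTTGCC, on both strands, was in 44.4% of the 9 members with a promoter against 12.2% of all promoters. The window is chr11:97677590-97677889 (+ strand), GRCr8, with the match in capitals.
Spag6l: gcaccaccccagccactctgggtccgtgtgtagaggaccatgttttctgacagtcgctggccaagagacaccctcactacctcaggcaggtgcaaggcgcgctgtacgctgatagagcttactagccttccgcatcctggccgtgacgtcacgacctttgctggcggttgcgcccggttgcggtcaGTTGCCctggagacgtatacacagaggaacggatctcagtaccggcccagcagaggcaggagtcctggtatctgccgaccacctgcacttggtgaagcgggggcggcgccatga
The Cfap126 window holds 0 such matches.

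**Figure D4:**
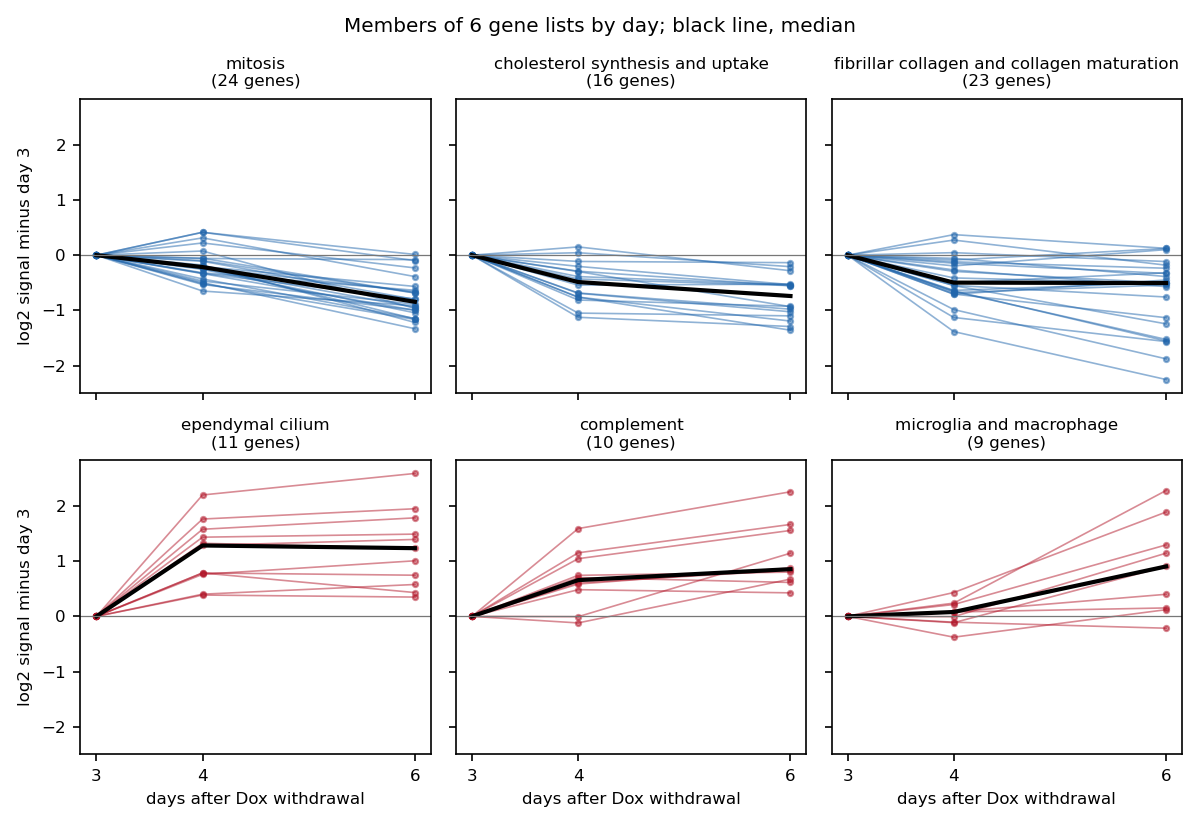
Log2 normalized signal minus the day 3 value (y axis) against days after Dox withdrawal (x axis) for the members of 6 lists, 1 thin line per gene with the median in black. The median of mitosis genes is lower mainly after day 4, in the longer interval, and that of cholesterol genes mainly by day 4 (upper row). Most cilium genes are higher by day 4, and 5 of the 9 microglial genes were detected on day 6 alone (lower row).

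Some genes of metal handling and detoxification were higher. Of 13 metallothionein, iron and copper genes 4 were at least 2-fold higher, against 1.57% of all genes. They were Tf and Cp together with the metallothioneins Mt1 (13.34, 14.27 and 14.54) and Mt3 (13.75, 14.59 and 14.88). Iron storage and uptake genes differed less, Fth1 reading 15.08, 15.15 and 15.01 and Tfrc 5.67, 5.81 and 5.76, named after their values were seen. Oligodendrocytes also make transferrin. Of 15 markers of these cells with a named probe 9 were measured, 0 were at least 2-fold apart and the summed signal was 3389, 3431 and 4003. Mag, Mog, Mobp, Cldn11, Enpp6 and Olig2 were not detected, and the part of such cells in the Tf difference was not tested. Among 23 glutathione and NRF2 targets, the glutathione transferases Gstm2 (9.15, 10.02 and 10.42) and Gstm1 (10.40, 11.20 and 11.56) were at least 2-fold higher. The share of all genes so far apart was 1.57%, and the list median was 0.13.

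Few folding, translation and energy genes were 2-fold apart. Of 17 endoplasmic reticulum chaperones 15 were lower with a median of -0.49, though only Sdf2l1 (6.00, 5.15 and 4.97) at least 2-fold, against 1.38% of all genes. Pdia4, a protein disulphide isomerase, read 10.66, 10.19 and 10.02, and Hspa5, the main chaperone of this compartment, 13.30, 12.90 and 12.92. The integrated stress response, heat shock and proteasome lists had medians of 0.02, 0.01 and -0.06 with 0 members at least 2-fold apart. Of 43 cytosolic ribosomal protein genes 38 were lower, by a median of -0.16, and of 36 oxidative phosphorylation genes 25 were higher, by a median of 0.12. Splicing and RNA-binding genes had a median of -0.18 over 23 members, the largest being Srsf7, a splicing factor (7, 6.64 and 6.05). Tardbp was 1.39-fold lower on day 6. Glycolysis and hypoxia-inducible genes had a median of 0.10 over 27 members, and the only one 2-fold apart was Car9, a carbonic anhydrase induced by hypoxia (7.60, 7.24 and 6.56). Among 21 matrix proteases and inhibitors the same held for Plau, the urokinase-type plasminogen activator (6.82, 6.27 and 5.74). The lists of lysosome, circadian clock, p53 target, growth factor and mitochondrial stress genes held 0 members at least 2-fold apart.

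Immediate early genes, which respond within minutes to stimulation, mostly had no day 4 value between the outer days. Of 21 measured 19 were higher on day 6 (median 0.34), but the median step was -0.14 up to day 4 and 0.47 after it. Day 4 lay between in 6, where it did in 47.0% of all genes. Other lists were also low, as with 3 of 10 circadian clock and 5 of 14 TGF-beta pathway genes. Dusp6, a phosphatase induced by ERK signalling, was the only immediate early gene 2-fold apart (10.08, 10.73 and 11.17). Jun and Klf6 read 8.89, 9.30 and 9.76, and 9.58, 9.81 and 10.30, whereas Egr1 read 10.16, 9.98 and 10.86. Markers of neurons and endothelium were few. Of 17 neuronal markers 8 were measured, with Nefl, a neurofilament, at least 2.42-fold lower, and of 11 endothelial markers 5 were measured with 0 at least 2-fold apart.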

How the data were processed

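Per the labels' protocols, RNA was extracted with a column kit, then amplified and biotin-labelled. Per the submitters' processing notes GenomeStudio was used; no version of it is named in the sources. The deposited table of unprocessed values holds, per the file headers, a mean bead signal intensity per probe and array, not normalized, and a detection p-value against negative control beads. The authors' deposited value table holds log2 values whose differences between arrays equal log2 signal over each array's upper quartile within 0.00215; the centring per probe is unknown. Its column medians for the control arrays were 0.01, 0.05 and 0.02. No column was left out as belonging to no sample.

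Here the 3 control arrays were normalized together with limma 3.58.1 in R 4.3.3 (neqc: normexp background from the detection p-values, an offset of 16, quantile normalization, log2). The offset shrinks the folds of dim genes. Of the probes, 13793 have 1 gene symbol in the platform annotation and are named; 13752 matched the current RefSeq gene table (GRCr8, names only). Each gene is its brightest detected probe. A bound sets the undetected array at the higher of its own signal and the lowest detected signal of that array. Differences of at least 2-fold were counted without a test. The slope per day was fitted with lmFit and eBayes. It was tested on simulated data with known slopes. Python 3.11.15 computed the rest.

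The 48 gene lists (1158 entries, 972 named on the array, 813 measured) come from textbook knowledge, and some genes are in several. Entries were matched by symbol or older symbol, as Spag6l for Spag6. The samples, members and lists were chosen with earlier results of these data known. Genes named are the 12 largest increases and decreases with day 4 between, the largest day 4 excursions, the smallest slope p-values, up to 4 members per list (all at least 2-fold apart where 6 or fewer), and Tardbp, Gfap and Vim; other genes, among them Slc1a3, Slc1a2, Aqp4, Abca1, Trem2 and Hspa5, were named after their values were seen. The alternatives were other scalings, offsets, background corrections, filters and probe rules, the authors' deposited log2 values and other slope models.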

Additional observations from a re-analysis of the deposited data

How the results depend on the processing

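The counts moved with the fold threshold and with the treatment of dim genes. The 233 genes at least 2-fold apart became 83 without background correction, 127 with an offset of 50 and 93 in the deposited value table, all of which shrink dim differences, and 1095 at 1.5-fold. In those 3 settings 100% of the genes counted had day 4 between. Excursions of day 4 went from 1 to 0 in them and with a detection p under 0.01 on all 3 arrays. Slope calls by limma went from 0 to 582 without background correction, 475 with an offset of 50, 581 in the deposited value table, 34 with the stricter filter and 595 with a variance trend, and the cause was not tested. Median scaling, cyclic loess, all 6 arrays normalized together, the stricter filter, no filter and the mean over probes kept the 2-fold count within 1.5 times. Of 1802 values of the 205 named genes under the alternatives, 1702 kept direction and side of the 2-fold limit, 97 fell short of it, 3 others moved and 0 of the named genes that were 2-fold apart turned direction. No paired analysis was possible because each group holds 1 array. Signal over background limits genes near the detection limit, and days, culture age and array cannot be told apart.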

Other observations

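Peptide precursors and cytochrome P450 genes were grouped after their values were seen. Of 17 measured granins and peptide hormone precursors 4 were at least 2-fold higher on day 6 (1.57% of all genes) and 3 lower (1.38%), which supports nothing, since the family was chosen on these values. Higher were Scg2, the granin Scg3 (9.51, 10.29 and 10.72), the natriuretic peptide gene Nppc (4.68, 5.22 and 6.00, at least 2.04-fold) and Resp18 (7.51, 8.14 and 8.71). Lower were Npy, neuropeptide Y (8.36, 7.26 and 6.36), Vgf (6.82, 5.25 and 4.99) and Penk, the enkephalin precursor (10.98, 10.11 and 9.78). Of 28 measured cytochrome P450 genes 5 were at least 2-fold higher, against 1.57% of all genes, namely Cyp4f4, Cyp2d4 (6.27, 7.14 and 7.66), Cyp4b1 (7.41, 8.45 and 8.66), Cyp27a1 (5.51, 5.85 and 6.72) and Cyp4f1 (5.40, 5.94 and 6.44). Cyp51, the cholesterol enzyme, was the only one of them at least 2-fold lower. Of 168 measured genes whose symbols begin with Slc, Slc13a3, a dicarboxylate transporter (6.07, 6.86 and 7.36), was the only one at least 2-fold apart. Carriers with other symbols were not in this group, among them Slco1c1, which was 2.56-fold lower.

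The same days of the M337V arrays were read as values, with all 6 arrays normalized together. Of the 124 genes at least 2-fold higher in the controls 114 (91.9%) were higher on day 6 in the M337V arrays too, 51 of them at least 2-fold, and of the 109 lower genes 92 (84.4%) were lower, 33 at least 2-fold. Some of these genes were detected on neither day 3 nor day 6 of the M337V arrays, so their sign there rests on background signal. Of such genes Slit3 (-0.04), Col15a1 (-0.06) and Hp (0.12) were among those counted as following. Plac1 (-0.13), Pde1a (0.02) and Pear1 (0.01) were among those counted as not following. Across all 8192 genes 62.7% had the same sign. The share of all genes at least 2-fold apart in the M337V arrays was not counted, so the 51 and 33 have none beside them. At least 2-fold in the opposite direction were 0 of the higher genes and 1 of the lower genes, Rgs10 (1.13 in the M337V arrays). Of the 12 largest increases and 12 largest decreases, Scg2, Spp1 and Pcp4 did not follow, with M337V differences of -0.19, 0.01 and 0.30. The M337V arrays share the days with the controls but no sample.

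A further 3168 detected probes are left unnamed here, and of these 36 were at least 2-fold higher and 28 lower on day 6.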
